A study of Rattus norvegicus with 25 samples.

Results

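The leukocyte miRNAs examined here are the mature arms of miR-150, miR-142, miR-223, miR-155, miR-146a and miR-146b in rat sperm, taken by name from a matrix of miRNA read counts. The names were chosen with earlier results of these data known. There were 12 such miRNAs among 562 in the matrix, and 9 of the 317 that passed the filter on low counts and could be tested. The matrix held 25 small RNA libraries from mature sperm of F0 male Sprague–Dawley rats that had self-administered morphine or saline intravenously. Sperm was collected at the end of self-administration (7 saline libraries, F0_SAL, and 7 morphine libraries, F0_MOR) or after 90 days of abstinence (5 saline libraries, F0_ABS-SAL, and 6 morphine libraries, F0_ABS-MOR). The males of the abstinent groups were older at collection, so that time since the drug and age cannot be told apart, and ages are not given in the sources used here. The sperm came from the cauda epididymis by a double swim-up, with washes until pellets were visibly free of blood. The study compared morphine with saline at each timepoint, and the abstinent with the nonabstinent males of each treatment.

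These miRNAs are best known from blood cells. miR-150 is abundant in mature B and T lymphocytes, miR-142 is made in all blood lineages, miR-223 marks neutrophils and other myeloid cells, and miR-155 is processed from a host transcript that is induced when lymphocytes and macrophages are activated. miR-146a is induced by NF-κB and represses TRAF6 and IRAK1, adaptors of Toll-like receptor signalling, and miR-146b comes from a separate gene. The members of the miR-146 pair are also found in cells outside blood. Each hairpin gives a 5p and a 3p arm, of which one is usually kept. An miRNA recognizes its targets mainly through its seed, so the arms that could be matched are shown with the seed (bases 2 to 8) in capitals. RefSeq sequences (GRCr8) were matched for 10 of the 12 members and for 520 miRNAs of the matrix. The matched arms that passed the filter were these:
rno-miR-142-5p: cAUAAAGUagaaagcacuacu
rno-miR-142-3p: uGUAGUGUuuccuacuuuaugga
rno-miR-223-3p: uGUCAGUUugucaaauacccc
rno-miR-223-5p: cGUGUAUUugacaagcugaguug
rno-miR-155-5p: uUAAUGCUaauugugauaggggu
rno-miR-146a-5p: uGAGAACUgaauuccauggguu
rno-miR-146b-5p: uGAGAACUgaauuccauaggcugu
rno-miR-146b-3p: cCUAGGGAcucaguucuggug

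rno-miR-146a-5p and rno-miR-146b-5p carried the same seed, and each of the other matched members had a seed found in no other miRNA among the 520. Along the 22 bases of rno-miR-146a-5p, 20 were the same in rno-miR-146b-5p. The differences were G18A and U21C, counted from the 5′ end with the rno-miR-146a-5p base first. The genes lie apart, Mir146a on chromosome 10 and Mir146b on chromosome 1, but reads that end early or carry a sequencing error could have been shared between the miR-146 arms by the authors' counting, and the split between them is to that extent uncertain. Mir142 is also on chromosome 10, Mir223 on chromosome X and Mir155 on chromosome 11.

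Between 1032386 and 3203211 reads were counted on miRNAs in a library. No count of 1 occurred and the lowest count above 0 was 2, so a count of 0 can hide a single read and no upper limit was set for it. The scaling factors that make libraries comparable (TMM, trimmed mean of M-values) ran from 0.701 to 1.26 and were lowest in 3 F0_SAL libraries (O, V and W, at 0.777, 0.767 and 0.701). miRNAs of male germ cells, the defining markers of this sample, summed to between 175481 and 742779 CPM (read counts scaled to a common library total) in a library, and were abundant in every group. Libraries are named by the letter of their column, since no label links a letter to a replicate number, and columns marked REG or TO were assigned to the nonabstinent or abstinent groups by group size.

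The members spanned a wide range of levels, given as TMM-scaled CPM averaged over the 25 libraries. rno-miR-146b-5p averaged 3365 CPM and ranked 35th of the 562 miRNAs, followed by rno-miR-146a-5p at 1078 CPM and rno-miR-142-5p at 662 CPM. rno-miR-150-5p averaged 158 CPM and rno-miR-142-3p 136 CPM. rno-miR-223-3p averaged 33.3 CPM, rno-miR-223-5p 8.86 CPM, rno-miR-155-5p 6.88 CPM and rno-miR-146b-3p 6.18 CPM. The summed level of all 12 members overlapped between the groups, from 4807 to 6005 CPM in F0_SAL, 5009 to 6928 CPM in F0_MOR, 4752 to 5983 CPM in F0_ABS-SAL and 4721 to 5942 CPM in F0_ABS-MOR, and most of it was rno-miR-146b-5p. Without rno-miR-146b-5p the groups also overlapped, but the order of the means differed, at 1733 ± 464 CPM (SD, n = 7) in F0_SAL, 2048 ± 288 CPM (SD, n = 7) in F0_MOR, 2195 ± 303 CPM (SD, n = 5) in F0_ABS-SAL and 2473 ± 370 CPM (SD, n = 6) in F0_ABS-MOR. That order was the order of rno-miR-146a-5p, whose means were 763, 923, 1264 and 1470 CPM in the same groups. The next most abundant, rno-miR-142-5p, averaged 676, 713, 605 and 635 CPM, so the rise was not shared by all members. In bulk samples such as these, fewer cells of a type and less RNA per cell cannot be told apart.

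Counting error set a different limit for the abundant and the rare members. For rno-miR-146b-5p the coefficient of variation within groups was 11.7%, against 1.26% expected from counting alone, and for rno-miR-150-5p it was 32.6% against 5.87%. For rno-miR-155-5p the 60.6% within groups stood beside 27.6% from counting, and for rno-miR-146b-3p the 43.0% stood beside 29.6%. Differences between libraries in the rarest members therefore rested on few reads, with between 0 and 35 reads of rno-miR-155-5p in a library.

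One arm dominated in every hairpin. The 5p arm held 99.3% of the reads of miR-150, 98.8% of miR-155, 99.98% of miR-146a and 99.8% of miR-146b. The 5p arm of miR-142 held 82.1% and the 3p arm of miR-223 held 78.9%. The remaining arms of miR-150, miR-146a and miR-155 were too rare to be tested. rno-miR-150-3p had 48 reads in 13 libraries, with reads in each group. rno-miR-146a-3p had 12 reads in 4 libraries, all of them from abstinent males, and rno-miR-155-3p had 4 reads in 2 libraries, 1 of F0_MOR and 1 of F0_ABS-MOR.

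**Figure D1:**
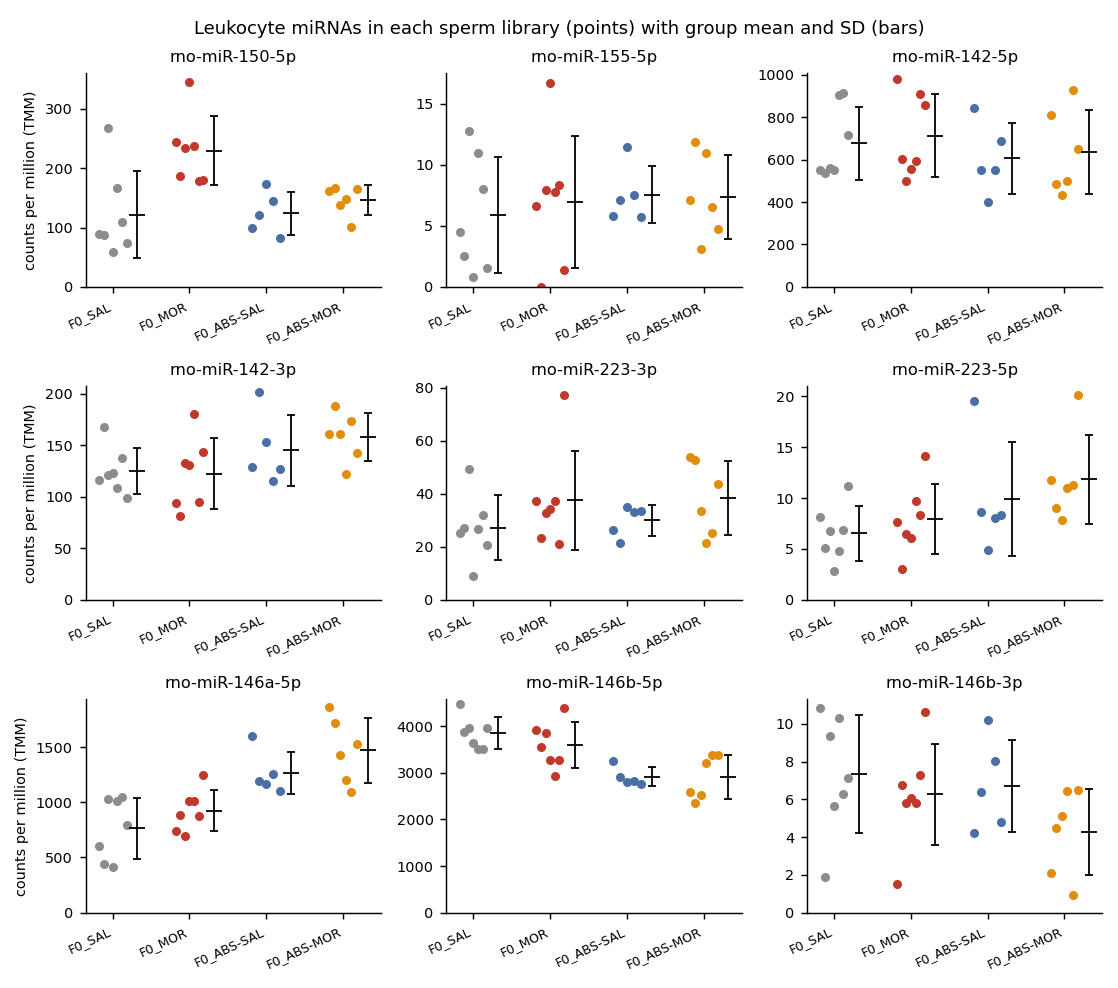
Level of each tested leukocyte miRNA in CPM (TMM-scaled, linear axes from 0) in every library, by group, with the group mean and SD beside the points. All 7 F0_MOR libraries have more rno-miR-150-5p than all 6 F0_ABS-MOR libraries, and all 5 F0_ABS-SAL libraries have more rno-miR-146a-5p than all 7 F0_SAL libraries.

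The first comparison asked whether morphine changed sperm miRNAs at the end of self-administration. rno-miR-150-5p had the smallest p of all 317 miRNAs but was not called, and neither was any other leukocyte miRNA. Called here means an adjusted p under 0.1 with an absolute log2 fold change above 0.58, in edgeR's quasi-likelihood test with Benjamini-Hochberg adjustment over all 317 miRNAs. None of the 9 members was called between F0_MOR and F0_SAL, beside a background of 0% of all miRNAs tested, while 7.26% (23 of 317) had an unadjusted p under 0.05.

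rno-miR-150-5p measured 59.1, 74.3, 87.5, 89.4, 109, 167 and 267 CPM in the F0_SAL libraries. In the F0_MOR libraries it measured 178, 179, 188, 235, 238, 245 and 345 CPM. Thus every F0_MOR library exceeded 6 of the 7 F0_SAL libraries, and 1 F0_SAL library (H, at 267 CPM) lay among the highest of the F0_MOR libraries. The F0_SAL mean was 122 ± 72.8 CPM (SD, n = 7), and the F0_MOR mean was 229 ± 58.6 CPM (SD, n = 7). The log2 fold change was 0.92 (SE 0.26, adjusted p = 0.311 in edgeR). Over the other tools, scalings and filters the log2 fold change stayed between 0.89 and 1.07, and the adjusted p ran from 0.0127 to 0.665, called with limma-voom and sample quality weights alone. Without library H the log2 fold change was 1.16 with an adjusted p of 0.00408, and without any other single library it was not called. The F0_SAL libraries O, V and W have the lowest TMM factors, and O and W also have the lowest rno-miR-150-5p (59.1 and 74.3 CPM). Without them, an omission chosen after seeing the data that keeps H, the log2 fold change was 0.59 with an adjusted p of 0.964 in edgeR. With DESeq2, the tool of the study, the log2 fold change here was 0.92 with an adjusted p of 0.114, just short of a call. The study called rno-miR-150-5p in this comparison with DESeq2 on these same libraries. It also reported that qPCR appeared to give similar group differences. Since the study singled it out on these libraries, this difference is not independent evidence of its direction.

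The myeloid miRNA rno-miR-223-3p ranged from 8.84 to 49.4 CPM (median 26.8) in F0_SAL and from 20.9 to 77.2 CPM (median 34.1) in F0_MOR, with overlapping groups and a log2 fold change of 0.49 (SE 0.30, adjusted p = 0.726 in edgeR). The log2 fold change was 0.17 without library U, 0.28 without library O and 0.22 without O, V and W. Of the pan-haematopoietic arms, rno-miR-142-3p had a log2 difference of -0.02 (SE 0.19) and rno-miR-142-5p of 0.08 (SE 0.21). For rno-miR-155-5p the log2 difference was 0.30 (SE 0.55), smaller than its error. The median log2 fold change was 0.27 over the 9 members and 0.06 over all 317 miRNAs. The ratio of reads of rno-miR-150-5p to rno-miR-142-3p within a library, which needs no scaling between libraries, was 1.01 ± 0.634 on average in F0_SAL (SD, n = 7), and in F0_MOR it was 1.96 ± 0.570 (SD, n = 7), with ranges of 0.480 to 2.21 and 1.25 to 2.65 that overlapped.

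After 90 days of abstinence, the same comparison gave no call. None of the 9 members was called between F0_ABS-MOR and F0_ABS-SAL, beside 0% of all miRNAs, and 1.26% (4 of 317) had an unadjusted p under 0.05. rno-miR-150-5p measured 82.2, 99.4, 121, 144 and 173 CPM in F0_ABS-SAL and 101, 137, 147, 161, 164 and 167 CPM in F0_ABS-MOR. The ranges overlapped almost entirely, and the log2 fold change was 0.24 (SE 0.29, 95% interval -0.36 to 0.84). The interval holds no difference and ends just below the 0.92 estimated in the nonabstinent males, whose own 95% interval was 0.38 to 1.45. The difference between the morphine effects at the 2 timepoints was 0.68 for rno-miR-150-5p on the log2 scale (SE 0.38, adjusted p = 0.953 in edgeR), nonabstinent minus abstinent. It was 0.29 without libraries O, V and W. No member was called for that difference, nor was any of the 317 miRNAs (0%), with 3.15% at an unadjusted p under 0.05.

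Between the saline groups rno-miR-146a-5p rose, while its seed partner was lower in every abstinent library. rno-miR-146a-5p measured 410, 445, 603, 792, 1015, 1026 and 1050 CPM in F0_SAL and 1106, 1168, 1193, 1258 and 1596 CPM in F0_ABS-SAL. Every abstinent library lay above every nonabstinent one. The mean rose from 763 ± 279 CPM (SD, n = 7) to 1264 ± 194 CPM (SD, n = 5), a log2 fold change of 0.73 (SE 0.22, adjusted p = 0.0150 in edgeR). It was the 1 member called, 1 of 9 higher and none lower, beside 33.1% of all miRNAs called in this comparison (22.4% higher and 10.7% lower, with 42.9% at an unadjusted p under 0.05). The share of members was thus below the background. Groups failed to overlap for 6.94% of all miRNAs, with the abstinent libraries above for 4.73% and below for 2.21%. Without library E the log2 fold change was 0.56, just under the limit, with each other library left out it stayed called, and total count alone raised it to 1.10.

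rno-miR-146b-5p, which shares the seed, measured 3513, 3518, 3645, 3877, 3954, 3964 and 4475 CPM in F0_SAL and 2764, 2797, 2813, 2912 and 3261 CPM in F0_ABS-SAL, again with no overlap. The log2 difference was -0.40 (SE 0.15, adjusted p = 0.0396 in edgeR), past the p threshold but short of the size required for a call. It was -0.04 when libraries were scaled by total count alone, a scaling that moved the median of all miRNAs up by 0.39 in this comparison and turned 71 higher and 34 lower calls into 110 and 1. Relative to that median the sign was kept. Of the other members, rno-miR-223-5p differed by 0.59 (SE 0.39, adjusted p = 0.240 in edgeR) and rno-miR-150-5p by 0.03 (SE 0.28), neither beyond the spread between libraries.

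Between the morphine groups rno-miR-146a-5p rose again and rno-miR-150-5p fell. rno-miR-146a-5p measured 694, 740, 872, 885, 1010, 1013 and 1245 CPM in F0_MOR and 1096, 1198, 1424, 1525, 1717 and 1863 CPM in F0_ABS-MOR. There 4 of 6 abstinent libraries lay above all 7 nonabstinent ones, and the log2 fold change was 0.67 (SE 0.21, adjusted p = 0.0261 in edgeR). It was called under all 8 other tools, scalings and filters and with each of the 25 libraries left out. The timepoint comparisons use different animals in both arms. The change of rno-miR-146a-5p with time did not differ detectably between treatments, with an interaction of 0.06 (95% interval -0.58 to 0.69).

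rno-miR-150-5p had F0_MOR values from 178 to 345 CPM and F0_ABS-MOR values from 101 to 167 CPM, so that the groups did not overlap. The mean fell from 229 ± 58.6 CPM (SD, n = 7) to 146 ± 24.9 CPM (SD, n = 6), a log2 difference of -0.65 (SE 0.27, adjusted p = 0.0845 in edgeR). The call was near the threshold and held under 4 of 8 other tools, scalings and filters. It held in 18 of 25 fits with a library left out, but in only 6 of the 13 that left out a library of the groups compared. Without A, D, G, J, M, Q or S it was lost, at log2 differences from -0.68 to -0.53 and adjusted p-values from 0.102 to 0.136 in edgeR. The members called, 1 higher and 1 lower of 9, stood beside 21.1% of all miRNAs called (11.0% higher and 10.1% lower, with 32.5% at an unadjusted p under 0.05). Groups failed to overlap for 3.47% of all miRNAs, with the abstinent libraries above for 1.89% and below for 1.58%. The F0_MOR libraries here are also those of the comparison with F0_SAL, so the values of rno-miR-150-5p in the comparisons are not separate observations. Its ratio to rno-miR-142-3p was 1.25 to 2.65 in F0_MOR and 0.581 to 1.21 in F0_ABS-MOR, again without overlap. The ratio to rno-miR-146a-5p did not overlap either, at 0.144 to 0.341 in F0_MOR and 0.0863 to 0.123 in F0_ABS-MOR. Other ratios did overlap. To rno-miR-142-5p they were 0.195 to 0.621 and 0.109 to 0.343, and to rno-miR-223-3p 2.32 to 10.1 and 2.98 to 6.88. The separation thus depended on the member chosen as denominator. Of the denominators without overlap, rno-miR-146a-5p was itself called higher in F0_ABS-MOR (log2 fold change 0.67), and rno-miR-142-3p was higher by 0.37 without a call. Those with overlap, rno-miR-142-5p and rno-miR-223-3p, differed by -0.17 and 0.03.

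In the same comparison rno-miR-146b-5p differed by -0.31 (SE 0.14, adjusted p = 0.112 in edgeR) and rno-miR-142-3p by 0.37 (SE 0.19, adjusted p = 0.176 in edgeR). rno-miR-155-5p, rno-miR-223-3p and rno-miR-142-5p differed by 0.09, 0.03 and -0.17. The largest differences not called were those of rno-miR-223-5p at 0.55 (SE 0.37) and rno-miR-146b-3p at -0.53 (SE 0.44). No member beside rno-miR-150-5p was called lower. With 10.1% of all miRNAs called lower, the absence of a further such call among 9 members says nothing particular about them. The median log2 fold change was 0.03 over the 9 members and 0.0015 over all miRNAs.

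**Figure D2:**
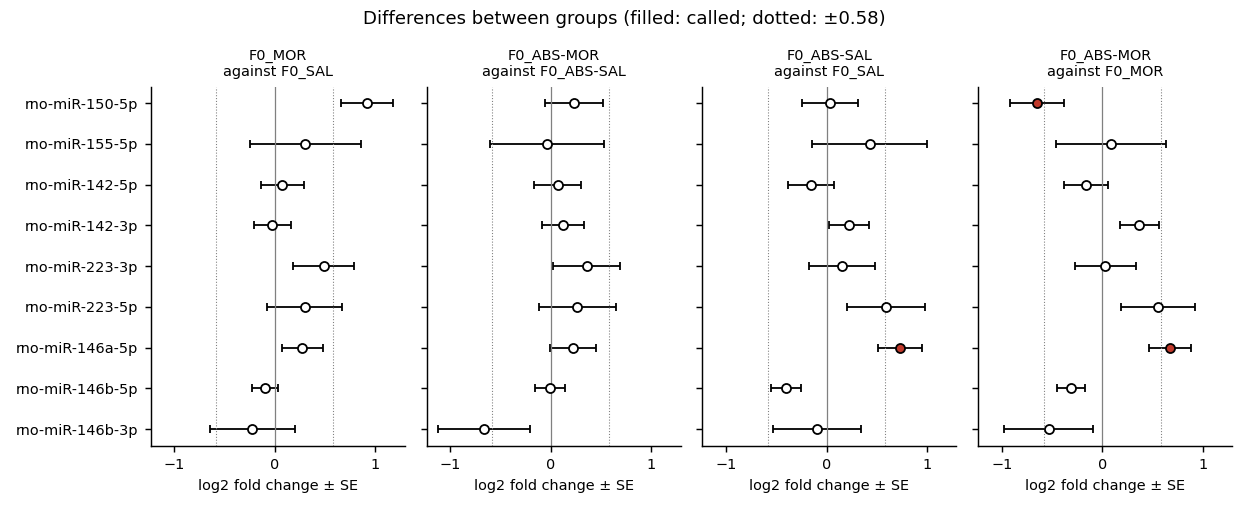
Log2 fold change with its standard error (edgeR) for the 9 tested leukocyte miRNAs in the 4 comparisons, as first group minus second group, with dotted lines at ±0.58 and filled points for called miRNAs. rno-miR-146a-5p is filled in both comparisons of timepoints and rno-miR-150-5p in F0_ABS-MOR against F0_MOR, at -0.65.

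Markers of other cells were also called between timepoints. miRNAs of erythroid cells fell between F0_MOR and F0_ABS-MOR, where rno-miR-150-5p fell. All 3 tested were called lower, rno-miR-451-5p by -0.95, rno-miR-144-5p by -1.12 and rno-miR-144-3p by -0.65 on the log2 scale, and their list summed to 949 to 2377 CPM in F0_MOR and 308 to 1295 CPM in F0_ABS-MOR. None of the erythroid list was called between F0_MOR and F0_SAL. In the comparisons where rno-miR-146a-5p rose, epithelial miRNAs were called higher for 5 of 7 (saline) and 3 of 7 (morphine), endothelial for 2 of 2 in both, muscle for 4 of 6 and 2 of 6, and germ cell miRNAs were called lower for 4 of 6 and 2 of 6. Beside these counts, 22.4% (saline) and 11.0% (morphine) of all miRNAs were called higher, and 10.7% and 10.1% lower. The summed endothelial level went from 546 to 783 CPM in F0_SAL to 708 to 2821 CPM in F0_ABS-SAL, and the summed epithelial level from 6483 to 10691 CPM to 8605 to 18976 CPM. No list was at 0 for any defining marker in all libraries. The part of these changes in the results for rno-miR-146a-5p and rno-miR-150-5p was not tested. A second list of miRNAs known from leukocytes, though not from them alone (miR-342, miR-511, miR-147, miR-21 and miR-132), had 6 of 9 arms tested. None of these arms was called in any comparison. The list summed to 27289 to 37003 CPM in F0_SAL, against 4807 to 6005 CPM for the 12 members, so it cannot be read as a measure of leukocytes.

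The miR-146 pair can also be read as a ratio within each library, which is free of scaling between libraries. The ratio of rno-miR-146a-5p to rno-miR-146b-5p reads was 0.201 ± 0.0820 on average in F0_SAL (SD, n = 7), and the F0_ABS-SAL value was 0.433 ± 0.0363 (SD, n = 5), with ranges of 0.113 to 0.299 and 0.400 to 0.490 that did not overlap. In the morphine groups it averaged 0.260 ± 0.0603 (SD, n = 7) and 0.527 ± 0.173 (SD, n = 6), with ranges of 0.180 to 0.345 and 0.324 to 0.731 that overlapped slightly. These ratios are given as a description, with no test. The ratio of rno-miR-142-3p to rno-miR-142-5p varied more within groups than between them, from 0.0965 to 0.387 over all libraries.

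**Figure D3:**
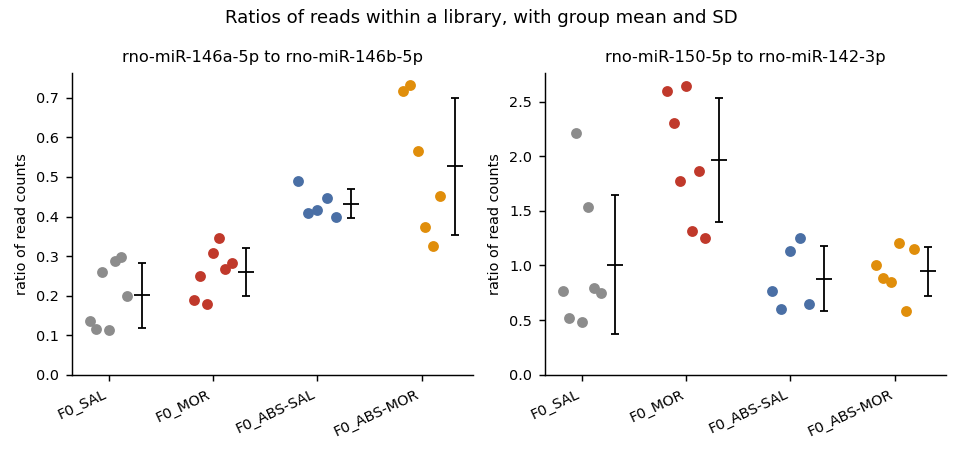
Ratio of read counts within each library, rno-miR-146a-5p to rno-miR-146b-5p on the left and rno-miR-150-5p to rno-miR-142-3p on the right, with group mean and SD. The miR-146 ratio is higher in abstinent groups (means 0.433 and 0.527) than in nonabstinent groups (0.201 and 0.260), and the ratio on the right is highest in F0_MOR (mean 1.96).

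Whether the leukocyte miRNAs varied together was asked marker by marker against rno-miR-150-5p, over the 25 libraries, on log2 CPM with each group's mean removed. Each p came from 100000 permutations within groups and was adjusted over the 316 other miRNAs tested. rno-miR-155-5p and rno-miR-223-3p, 2 of the 8 members, were correlated with rno-miR-150-5p at an adjusted p under 0.1, beside 15.5% (49 of 316) of all miRNAs with a positive correlation and 9.18% with a negative one. The members' share was near that background, so it says nothing particular about them.

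rno-miR-155-5p, the miRNA of activated lymphocytes and macrophages, was the closest member and ranked 18th of 316. Pearson's r was 0.69 (permutation adjusted p = 0.00448) and Spearman's rho 0.69 (permutation adjusted p = 0.00667). Without the libraries farthest from the median of rno-miR-150-5p (H and O), r was 0.62. Within groups r was 0.91 in F0_SAL, 0.68 in F0_MOR and 0.22 in F0_ABS-MOR, as a description (F0_ABS-SAL has too few libraries), and whether these differ was not tested. In the other direction, rno-miR-150-5p was the miRNA most correlated with rno-miR-155-5p of all 316. The reads behind rno-miR-155-5p are few, and the highest libraries of both miRNAs were M in F0_MOR (345 and 16.7 CPM) and H in F0_SAL (267 and 12.8 CPM).

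rno-miR-223-3p had r = 0.54 with rno-miR-150-5p (permutation adjusted p = 0.0743) and rho = 0.49 (permutation adjusted p = 0.0814). The relation moved with single libraries, since r was 0.24 without H and O and 0.70 (permutation adjusted p = 0.0168) without U. Within groups r was 0.82 in F0_SAL, 0.01 in F0_MOR and 0.66 in F0_ABS-MOR, the last of which holds none of these libraries. Without O, V and W it was 0.37 (permutation adjusted p = 0.240), while rno-miR-155-5p kept r = 0.61 (permutation adjusted p = 0.0371). Library O had the lowest level of both miRNAs (59.1 and 8.84 CPM) and H the highest in its group. For rno-miR-146a-5p r was 0.52 (permutation adjusted p = 0.153), rho was 0.45 (permutation adjusted p = 0.156), and r was 0.30 without H and O. rno-miR-146b-3p had r = 0.32 (permutation adjusted p = 0.294).

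The remaining members did not pass the threshold. r was 0.07 for rno-miR-142-3p, -0.07 for rno-miR-223-5p, -0.20 for rno-miR-146b-5p and -0.22 for rno-miR-142-5p, with permutation adjusted p-values from 0.445 to 0.879. With total count alone as the scaling, the values for rno-miR-146b-5p and rno-miR-142-5p were 0.33 and 0.02, and rno-miR-146a-5p was then also correlated (r = 0.67, permutation adjusted p = 0.0240). The median r with rno-miR-150-5p was 0.19 over the 8 members and 0.07 over all 316 miRNAs.

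**Figure D4:**
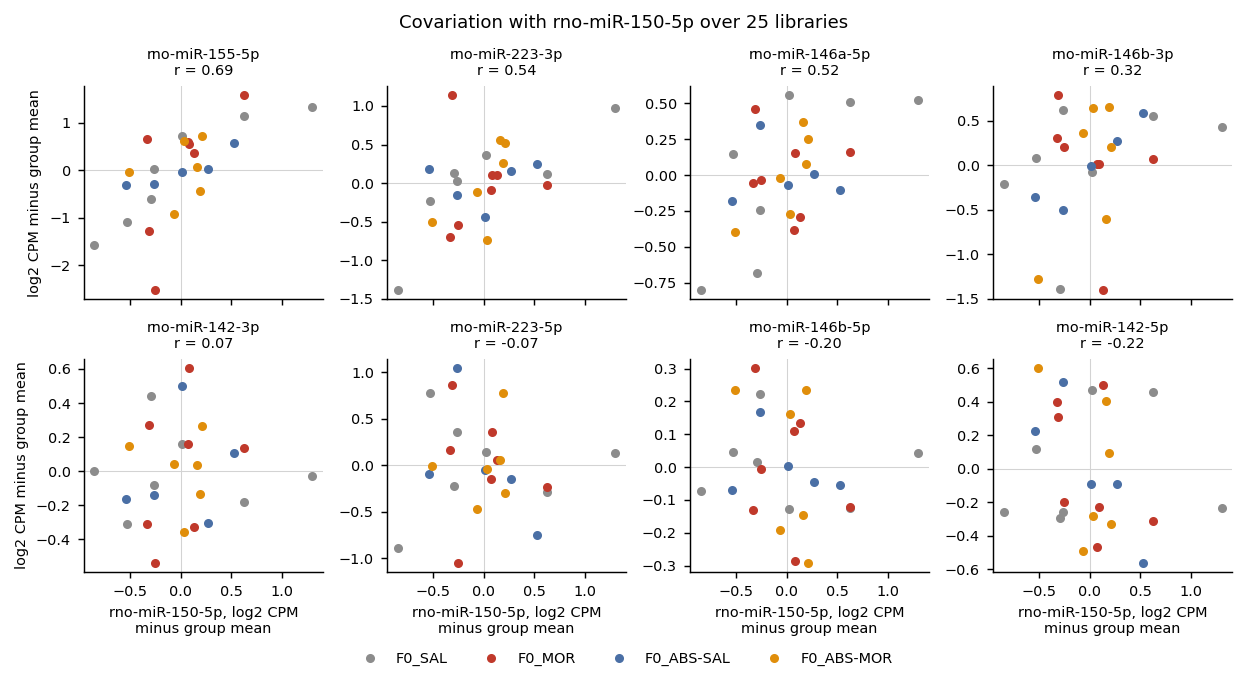
Log2 CPM minus the group mean for rno-miR-150-5p (horizontal axis) and each other tested member (vertical axis) in 25 libraries, coloured by group, in order of Pearson's r. r falls from 0.69 for rno-miR-155-5p to -0.22 for rno-miR-142-5p, and the library farthest to the right is H of F0_SAL.

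Over the 6 tested arms of the second leukocyte list, r with rno-miR-150-5p ran from -0.45 (permutation adjusted p = 0.0743) to 0.28 (permutation adjusted p = 0.383). Only the lowest of them passed the threshold, with a negative sign. For erythroid miRNAs r with rno-miR-150-5p was -0.05 for rno-miR-451-5p, -0.07 for rno-miR-144-5p and -0.12 for rno-miR-144-3p. Among themselves the 3 erythroid miRNAs, which include both arms of miR-144, had a median r of 0.73 (0.52 to 0.77). The 36 pairs of leukocyte miRNAs come from separate hairpins for the most part, and the rarest members rest on few reads. Their median r was 0.10 (-0.37 to 0.69, 26 of them positive). The median was 0.58 over 21 epithelial pairs, 0.42 over 15 germ cell pairs and 0.01 over all 50086 pairs of miRNAs tested. These pairwise values are a description over the same 25 libraries and share each library's composition. The lists also differ in how many of their arms share a hairpin, and whether their genes lie together was not examined. The medians therefore do not rank cell types by how closely their miRNAs vary together.

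The arms of a hairpin did not track each other closely. r was -0.24 between rno-miR-142-3p and rno-miR-142-5p and 0.37 between rno-miR-223-3p and rno-miR-223-5p, neither past the threshold (permutation adjusted p = 0.576 and 0.911 over all miRNAs with the 3p arm as anchor). Between the arms of miR-146b r was -0.04 (permutation adjusted p = 0.938 with the 3p arm as anchor). rno-miR-223-5p and rno-miR-146b-3p had medians of 16 and 11 reads in a library, so counting error can lower these r. The 5p arms of miR-146a and miR-146b, which are separate genes, had r = -0.19 (permutation adjusted p = 0.736). The closest miRNA of all to rno-miR-223-3p was rno-miR-146a-5p, at r = 0.64 (permutation adjusted p = 0.509).

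**Figure D5:**
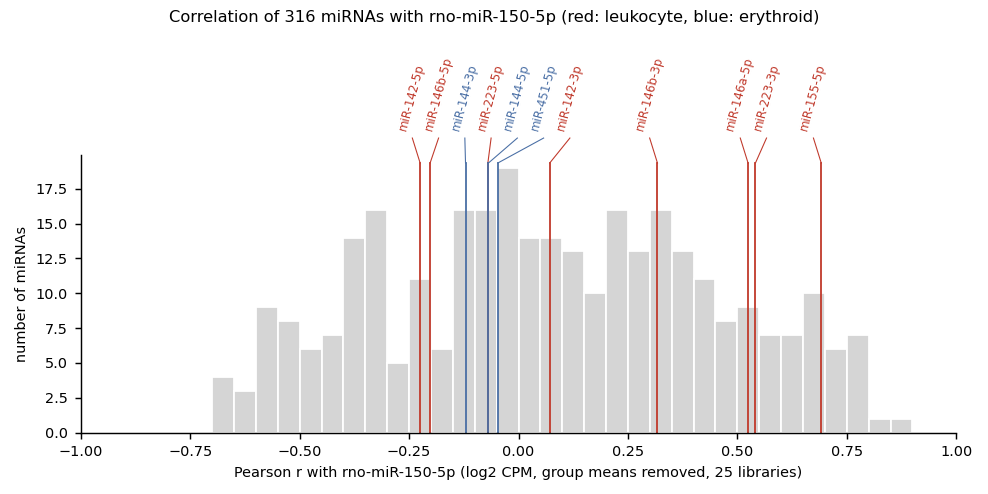
Histogram of Pearson's r with rno-miR-150-5p for 316 miRNAs (log2 CPM, group means removed, 25 libraries), with leukocyte miRNAs marked in red and erythroid miRNAs in blue. The marked leukocyte miRNAs spread from -0.22 to 0.69 and the erythroid ones lie between -0.12 and -0.05.

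The miRNAs whose levels were most like those of rno-miR-150-5p were no members. By Pearson's r over the 25 libraries they were rno-miR-24-3p (0.88), rno-miR-196b-5p (0.80), rno-miR-196a-5p (0.79), rno-miR-23a-3p (0.79) and rno-miR-199a-3p (0.78), with permutation adjusted p-values between 0.00316 and 0.00731. Without libraries H and O these r ran from 0.63 to 0.85. Their Spearman's rho lay between 0.67 and 0.86, with permutation adjusted p-values between 0.00158 and 0.0172.

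Of 7 measures of a library set against rno-miR-150-5p in the same way, the TMM factor had the strongest relation, with r = 0.57 (permutation adjusted p over the 7 of 0.0838), rho = 0.56 (permutation adjusted p = 0.0762) and r = 0.54 without H and O. For the summed germ cell miRNAs r was -0.39 (permutation adjusted p = 0.145), for the summed epithelial miRNAs 0.41 (0.129), for the total of miRNA reads -0.42 (0.182) and for the summed erythroid miRNAs -0.07 (0.768). Libraries with a larger TMM factor thus had more rno-miR-150-5p relative to other miRNAs. The part of this relation in the correlations above was not tested.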

How the data were processed

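The authors isolated sperm RNA, prepared small RNA libraries with the NEBNext kit and took the forward reads of Illumina sequencing. With sRNAbench they trimmed, filtered and aligned reads (rn6) and annotated them to miRBase, allowing a mismatch. The deposited values are raw read counts per mature miRNA and library, without normalization. Column names carry a letter, REG or TO, and SAL or MOR. REG and TO were matched to nonabstinent and abstinent groups by group size, and no label names a letter. Extraction or sequencing batches are not given in the sources used here. Whether same-group libraries share litters is not stated either, so p-values measure the spread between these libraries. No library pair agreed within sampling noise (lowest chi-square per degree of freedom 35.1 over 300 pairs). The ncRNA counts were not used.

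Counts were filtered with edgeR's filter over the 4 groups, scaled by TMM and tested with the quasi-likelihood test of edgeR 4.0.16 in R 4.3.3, in 1 model with 4 groups. The standard error is the log2 fold change divided by the square root of F, an approximation. Intervals use the t distribution on the residual degrees of freedom. The call thresholds, 0.1 for the adjusted p and 0.58 for the absolute log2 fold change, follow the study. Log2 CPM used a prior count of 2. The test was tried on simulated data with known changes. Alternatives were DESeq2 1.42.0, limma-voom (limma 3.58.1), exact permutation tests over all miRNAs, DESeq2 size factors, total count alone, no filter, at least 10 counts in every library (225 miRNAs), only the groups compared, an adjusted p under 0.05, and each library left out. Leaving out libraries O, V and W together was added after seeing the data. Correlations used numpy 2.4.6. All members are named, with the 5 other miRNAs of highest r with rno-miR-150-5p, and the miRNAs of the second leukocyte list if called. Erythroid miRNAs were named after their values were seen. The members and marker lists were chosen with earlier results of these data known.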

Additional observations from a re-analysis of the deposited data

Results flagged for a closer look

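Of 36 groups of libraries examined, for 9 miRNAs in 4 groups, 2 held a library far from the rest, and about 1.8 such groups would arise by chance. Both concerned rno-miR-146b-3p, the minor arm of miR-146b. Library F of F0_SAL had a log2 CPM of 1.55, where the next lowest library had 2.74. Library A of F0_MOR had 1.36, where the next lowest had 2.77. Both libraries held 3 reads of this arm.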

How the results depend on the processing

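Between F0_MOR and F0_SAL 1 leukocyte miRNA was called with limma-voom, and 0 to 1 with a library left out (1 without H). Between F0_ABS-SAL and F0_SAL 3 were called with total count alone (rno-miR-142-3p at 0.60 and rno-miR-223-5p at 0.99 beside rno-miR-146a-5p), and 0 to 1 with a library left out (0 without E). Between F0_ABS-MOR and F0_MOR 1 was called, rno-miR-150-5p being lost, at an adjusted p under 0.05, with limma-voom, with total count alone, with no filter and with at least 10 counts in every library, and 1 to 2 with a library left out. The count of members correlated with rno-miR-150-5p was 1 at an adjusted p under 0.05 and 1 with group means kept, when rno-miR-223-3p alone passed (r = 0.56) and rno-miR-155-5p had r = 0.47, and 1 to 3 with a library left out (1 without H, L, O, P, S, T or W, and 3 without U). Leaving out libraries O, V and W together, chosen after seeing the data, left 1 member correlated and every count of calls as it was. It changed the sign of rno-miR-155-5p (-0.16) between F0_MOR and F0_SAL, of rno-miR-146b-5p (0.058) and rno-miR-155-5p (0.015) between the abstinent groups, and of rno-miR-150-5p (-0.30), rno-miR-155-5p (-0.026) and rno-miR-223-3p (-0.12) between the saline groups, none of them called.

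Total count alone moved the median log2 fold change of all miRNAs by 0.19 between F0_MOR and F0_SAL, 0.39 between the saline groups and 0.18 between the morphine groups. Calls between the morphine groups went from 35 higher and 32 lower to 57 and 14. Under it, values near 0 changed sign, to 0.15 (rno-miR-142-3p) and 0.088 (rno-miR-146b-5p) between F0_MOR and F0_SAL, 0.012 (rno-miR-146b-5p, and 0.00212 with DESeq2 size factors) between the abstinent groups, 0.21 (rno-miR-142-5p) and 0.28 (rno-miR-146b-3p) between the saline groups, and 0.013 (rno-miR-142-5p) between the morphine groups. rno-miR-155-5p was at -0.16 between F0_MOR and F0_SAL with limma-voom. For these the cause was not tested.

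With each library left out in turn, values that crossed 0 were rno-miR-142-3p (-0.20 to 0.056), rno-miR-142-5p (-0.10 to 0.13) and rno-miR-155-5p (-0.10 to 0.51) between F0_MOR and F0_SAL. Between the abstinent groups they were rno-miR-142-5p (-0.10 to 0.24), rno-miR-146b-5p (-0.070 to 0.075) and rno-miR-155-5p (-0.24 to 0.17). Between the saline groups they were rno-miR-146b-3p (-0.33 to 0.016), rno-miR-150-5p (-0.15 to 0.29) and rno-miR-223-3p (-0.035 to 0.28), and between the morphine groups rno-miR-155-5p (-0.12 to 0.44) and rno-miR-223-3p (-0.093 to 0.34). None of these was called. Of 280 values recomputed with all libraries 265 kept their direction and side of the threshold, as did 874 of 925 with a library left out. No paired analysis was possible because the columns carry no replicate number.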
